A study of Rattus norvegicus with 22 samples.

Results

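The genes described here encode the subunits of the 5 complexes of oxidative phosphorylation, measured on 22 Affymetrix arrays of rat spinal cord. They were chosen by name alone: symbols beginning with Nduf (complex I), Sdha to Sdhd (complex II), Uqcr (complex III), Cox4 to Cox8 with the mitochondrial COX1 and COX2 (complex IV), and Atp5 (complex V). The rule took in 98 probe sets for 88 genes, out of 14217 genes with a probe set of a single symbol, and where a gene had several probe sets the one with the highest mean signal stood for it. There were 42 genes for complex I, 4 for complex II, 7 for complex III, 19 for complex IV and 16 for complex V. The name rule also admitted 6 complex I assembly factors (Ndufaf1, Ndufaf3, Ndufaf4, Ndufaf5, Ndufaf7 and Ndufaf8), the pseudogene Cox6c-ps1 and the ATP synthase inhibitor gene Atp5if1. All 88 genes entered every test.

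The study compared treatments of rats with a contused cord, where a 10 g weight had been let fall 25 mm onto the cord at thoracic level 10 and cord was examined 24 h later. Treated contused cords came from rats given clenbuterol, a beta2 agonist (150 mg/kg as labelled, 2 arrays), X-rays (10 Gy, 3 arrays), the radical scavenger tempol (275 mg/kg, 3 arrays), the glutathione synthesis inhibitor buthionine sulfoximine, BSO (150 mg/kg, 3 arrays), or tempol with BSO at those doses (3 arrays). BSO was given 24 h before the injury and the other agents 20 min after it. The remaining arrays held contused cord without treatment (2), cord after laminectomy (3), the opening of the spine without a contusion, and normal cord (3). The labels give no strain, sex or age, and no collection time for the laminectomy and normal cords. The labels also do not say that every array comes from its own animal, so p-values reflect the spread between these samples, which may be technical. Below, contused means the 16 arrays of the 6 contused groups. Uninjured means only without a contusion, the 6 arrays of laminectomy and normal cord.

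Oxidative phosphorylation takes place in the inner membrane of mitochondria. Complexes I and II pass electrons from NADH and succinate to ubiquinone, complex III passes them to cytochrome c, and complex IV passes them to oxygen. Complexes I, III and IV pump protons as they do so, and complex V, the ATP synthase, uses the returning protons to make ATP. Most subunits are encoded in the nucleus, while the cores of complexes I, III, IV and V also hold subunits encoded in mitochondrial DNA, among them COX1 and COX2. Neurons of the spinal cord depend heavily on this route for ATP, and loss of mitochondrial respiration in the first day is a known feature of spinal cord injury.

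Nuclear factors known to act on these promoters are NRF1, ETS-type factors such as GABP, YY1 and the estrogen-related receptors (ERR). The RefSeq promoter table of build GRCr8 held 78 of the 88 genes. Shown are the 250 bases before the start of 4 genes that the results turn on: Cox8a at chr1:213833624-213833873 (minus strand), Atp5mc3 at chr3:79220665-79220914 (minus strand), Ndufaf4 at chr5:43401545-43401794 (plus strand) and Ndufv1 at chr1:210734892-210735141 (minus strand). Each runs 5′ to 3′ along its gene, and capitals mark matches to the motifs given after them.
Cox8a: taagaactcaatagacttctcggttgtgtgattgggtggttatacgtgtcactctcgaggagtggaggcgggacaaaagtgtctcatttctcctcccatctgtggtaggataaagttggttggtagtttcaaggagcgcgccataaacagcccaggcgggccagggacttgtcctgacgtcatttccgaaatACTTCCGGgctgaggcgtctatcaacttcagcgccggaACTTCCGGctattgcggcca
Atp5mc3: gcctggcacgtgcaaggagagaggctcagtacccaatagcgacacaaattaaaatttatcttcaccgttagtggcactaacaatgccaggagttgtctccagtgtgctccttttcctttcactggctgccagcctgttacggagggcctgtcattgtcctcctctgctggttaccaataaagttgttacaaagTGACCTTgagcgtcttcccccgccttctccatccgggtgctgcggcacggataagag
Ndufaf4: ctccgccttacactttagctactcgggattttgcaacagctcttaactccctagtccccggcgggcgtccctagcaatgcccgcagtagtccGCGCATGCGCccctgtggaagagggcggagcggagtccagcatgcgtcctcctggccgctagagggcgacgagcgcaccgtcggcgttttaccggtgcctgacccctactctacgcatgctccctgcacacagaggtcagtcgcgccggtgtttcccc
Ndufv1: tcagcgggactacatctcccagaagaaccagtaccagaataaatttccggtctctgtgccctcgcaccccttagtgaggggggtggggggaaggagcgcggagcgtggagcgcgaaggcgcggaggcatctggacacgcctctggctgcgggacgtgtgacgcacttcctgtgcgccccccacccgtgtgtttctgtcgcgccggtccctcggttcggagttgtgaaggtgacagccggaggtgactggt

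The capitals in Cox8a are 2 ETS motifs, beginning 58 and 20 bases before the start. Those in Atp5mc3 are an ERR motif 57 bases before it, and those in Ndufaf4 an NRF1 motif 158 bases before it. Ndufv1 has none of the 4 motifs searched in its window. Cox8a also has a YY1 motif that runs across the start and an ERR motif after it, and Atp5mc3 an NRF1 motif after it, none of them wholly within the stretch shown. The letters searched, on both strands and over 300 bases that include 50 after the start, were GCGCA, any base and GCGC for NRF1, CCGGAAGT for ETS, AAGATGGC for YY1 and AAGGTCA for ERR. None of these letter strings contains another, and matches were counted per promoter. NRF1 letters stood in 15 of the 78 promoters (19.2%, against 4.71% of all 27457 promoters in the table and 8.5% of the 11701 promoters of genes on the array). YY1 letters stood in 17 (21.8%, against 3.44% and 4.72%), ERR letters in 11 (14.1%, against 4.37% and 3.15%) and ETS letters in 8 (10.3%, against 4.01% and 6.82%). At least 1 of the 4 was found in 39 members (50%), against 15.2% of all promoters and 20.7% of those on the array. By complex, 0 of 13 complex IV promoters and 5 of 15 complex V promoters held the NRF1 letters, while 2 of 13 and 1 of 15 held the ETS letters. No difference between complexes was tested. A match describes the letters only and does not show that a factor binds.

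Defining genes of spinal cord were present. The myelin gene Mbp ranged from 19105.8 to 84706.7 in signal and the astrocyte gene Gfap from 8054.3 to 45856.3. Chat, the enzyme gene of motor neurons, stayed between 5.8 and 182.4, at percentile 17.7 of all probe sets by mean signal, so it marks motor neurons poorly here. The respiratory genes themselves gave strong signals: 54 of the 88 lay above the 90th percentile by mean. Their median moderated standard deviation was 0.601 on the log2 scale, against 0.829 over all probe sets, the lowest in Atp5pf (0.455) and the highest in Cox6b2 (1.3). All probe sets include many dimmer ones, and the spread was not compared at matched signal. Laminectomy 2 and normal 1 differed from the other arrays in general: their median correlation with the remaining arrays was 0.667 and 0.685, and it was 0.725 to 0.785 for the other 20. They also had the strongest hybridization spikes, control RNAs added at a set amount (mean log2 signal 14 and 13.02, against 10.81 to 12.8 elsewhere). Results that rest on these 2 arrays are given with and without them.

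In contused cord the respiratory genes were mostly lower than in uninjured cord, in all 5 complexes, but by small amounts, and no single gene passed the test. Of the 88 genes 77 were lower and 11 higher, with a median difference of -0.32 on the log2 scale, where the median over all genes was 0.01 and 49.6% of genes, or 50% of probe sets, were lower. By limma 0 of the 88 passed an adjusted p of 0.05, a threshold that 0.319% of all probe sets passed, and the smallest adjusted p among the members was 0.211. At an unadjusted p under 0.05 there were 9 members, all lower, against 10.4% of all probe sets in either direction and 5.41% that were lower. The 16 contused and 6 uninjured arrays overlapped for every member, where 0.058% of probe sets lay wholly lower and 0.0709% wholly higher. The comparison gives each group mean the same weight and mixes injury with treatment. In cord measured in bulk, fewer cells of a type and less RNA per cell cannot be told apart.

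Much of this difference rested on the 2 arrays that stood apart. Taking each gene's deviation from its own mean over the 22 arrays, the members' median ran from -0.42 to 0.24 in the 16 contused arrays (mean -0.05, SD 0.23). It was 0.78 in laminectomy 2 and 0.67 in normal 1. Of the other 4 uninjured arrays laminectomy 3 stood at 0.34, laminectomy 1 at -0.02, normal 2 at -0.05 and normal 3 at -0.23, so that only laminectomy 3 lay outside the contused range. The 6 uninjured arrays averaged 0.25 (SD 0.41), and 0.01 (SD 0.24) without the 2.

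**Figure D1:**
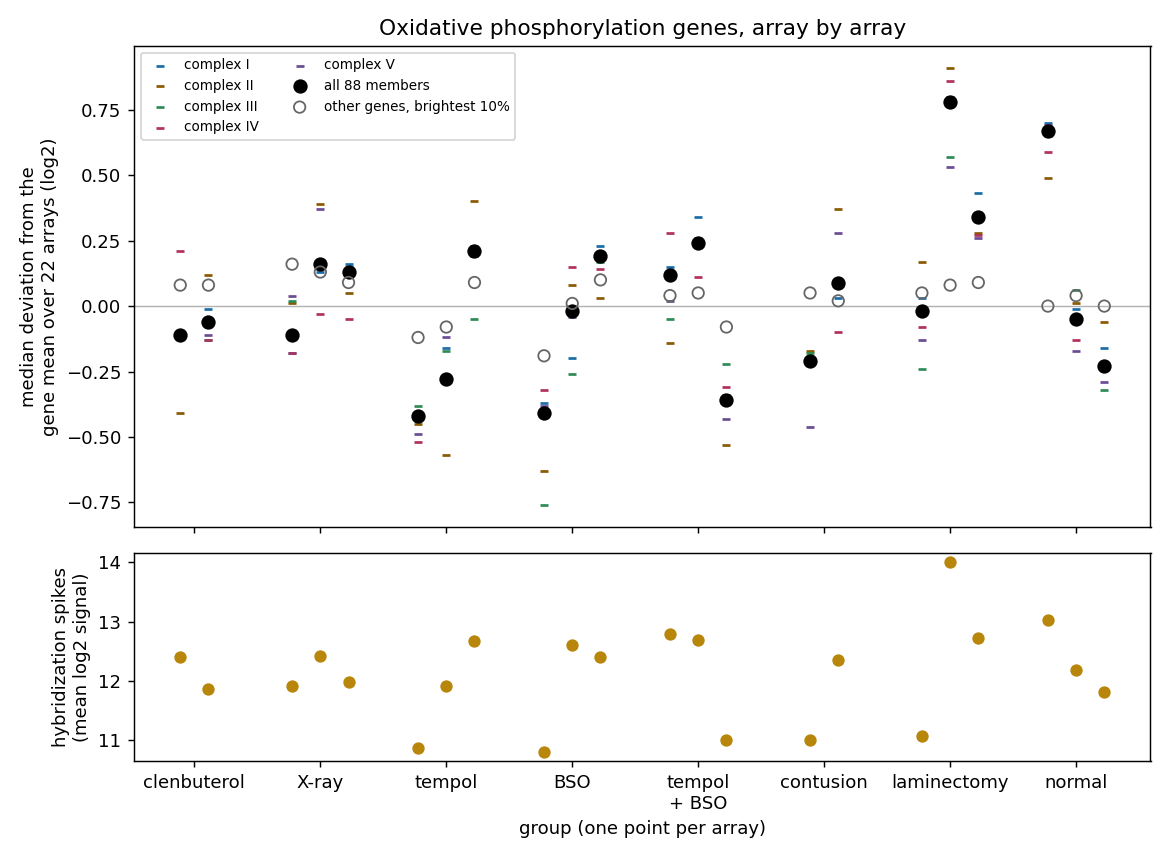
Upper panel: for each array, the median over genes of the log2 signal minus the gene's mean over 22 arrays, for all 88 members (black), each complex (coloured dashes) and the brightest 10% of other genes (open circles). Lower panel: mean log2 signal of the hybridization spikes of the same arrays. Laminectomy 2 (0.78) and normal 1 (0.67) lie above the other arrays in members but not in the median of the other bright genes. They also have the strongest spikes. Neuron and oligodendrocyte marker medians, not drawn, are highest in these 2 arrays too.

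All 5 complexes stood high together in those arrays. In laminectomy 2 the medians of complexes I to V were 0.80, 0.91, 0.57, 0.86 and 0.53, and in normal 1 they were 0.70, 0.49, 0.65, 0.59 and 0.69. Laminectomy 2 held the highest signal of the 22 arrays for 28 members (31.8%) and normal 1 for 23 (26.1%). Among the 2200 other genes in the brightest 10%, those shares were 14.6% and 11%, and their median deviation was 0.08 in laminectomy 2 and 0.00 in normal 1. Marker genes of neurons also stood highest in those 2 arrays, with medians of 0.82 and 0.84, against -0.94 to 0.64 elsewhere. So did oligodendrocyte markers, at 0.74 and 1.01, against -0.58 to 0.71. At the other end, BSO 1 held the lowest signal for 23 members, tempol 1 for 12 and tempol plus BSO 3 for 10.

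The hybridization spikes ran along with the members. In 7 of the 8 groups the array with the weakest spikes also had the lowest member median, and in 5 of 8 the array with the strongest spikes had the highest. The spikes were weakest in BSO 1 (10.81), tempol 1 (10.87), contusion 1 (11), tempol plus BSO 3 (11.01) and laminectomy 1 (11.07), where the member medians were -0.41, -0.42, -0.21, -0.36 and -0.02. Within groups the fitted slope of signal on spikes was positive for 72 of the 88 members (81.8%, median 0.32), against 51.1% of all genes (median 0.01). All genes include many dimmer ones, and the slopes were not compared at matched signal. RNA end ratios, the log2 signal of the 3′ over the 5′ end of a transcript, were highest for GAPDH in normal 1 (1.49, against -0.20 to 0.85 elsewhere) and for actin in laminectomy 2 (1.38).

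Without laminectomy 2 and normal 1, 59 of the 88 members were lower in contused cord, by a median of -0.12, and 1 reached an unadjusted p under 0.05. These 2 arrays were set apart by values of the same data. Both are uninjured and had the highest member medians, so leaving them out was bound to shrink the difference. BSO 1, tempol 1 and tempol plus BSO 3, the contused arrays with the lowest member medians, were kept. With the spikes as a covariate, an analysis chosen after the data were seen, 71 were lower, by a median of -0.18. The shares of all probe sets that were lower, or at an unadjusted p under 0.05, are not given here for these fits. Without the 2 arrays 79 of the 31042 probe sets passed an adjusted p of 0.05 by limma. Marker genes of the cord's own cells were mostly lower too. Neuron markers were lower for 19 of 20 genes (median -0.68, 2 past the test) and oligodendrocyte markers for 13 of 13 (median -0.60, 2 past the test). Without the 2 arrays the neuron markers were still lower for 17 of 20 and the oligodendrocyte markers for 13 of 13, each by a median of -0.52, with 0 and 2 past the test by limma. Astrocyte markers were lower for 8 of 11 (median -0.54, 2 past the test), and without the 2 arrays for 9 of 11 (median -0.44, 0 past the test by limma). Markers of cells that enter or expand after injury lay the other way: 13 of 14 macrophage markers (median 0.81, 4 past the test), 7 of 7 neutrophil (0.91, 2 past) and 5 of 5 erythroid markers (0.53, 1 past) were higher. Endothelial markers were split 4 and 4, and of 15 muscle markers 8 were higher, none of either list past the test. Without the 2 arrays 12 of 14 macrophage (median 0.98, 4 past the test), 6 of 7 neutrophil (0.69, 1 past) and 4 of 5 erythroid markers (0.51, 1 past) were higher. The uninjured arrays were not alike in these markers. In laminectomy minus normal cord 11 of 14 macrophage markers were higher (median 0.65, 0 past the test by limma). Summed macrophage signal was 12162 to 30987 in laminectomy, 5282 to 7254 in normal and 11678 to 25155 in contused arrays. Summed neuron marker signal was 10333 to 29504 in contused arrays and 25970 to 51134 in uninjured arrays, and summed oligodendrocyte signal was 30358 to 81092 and 45291 to 117432. Array by array, neuron marker and member medians were both high in laminectomy 2 (0.82 and 0.78) and normal 1 (0.84 and 0.67). They were both low in BSO 1 (-0.57 and -0.41), tempol plus BSO 3 (-0.52 and -0.36) and contusion 1 (-0.94 and -0.21). Normal 2 and normal 3 had neuron marker medians of 0.64 and 0.49 and member medians of -0.05 and -0.23. The part of cell loss in the members' difference was not tested.

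**Figure D2:**
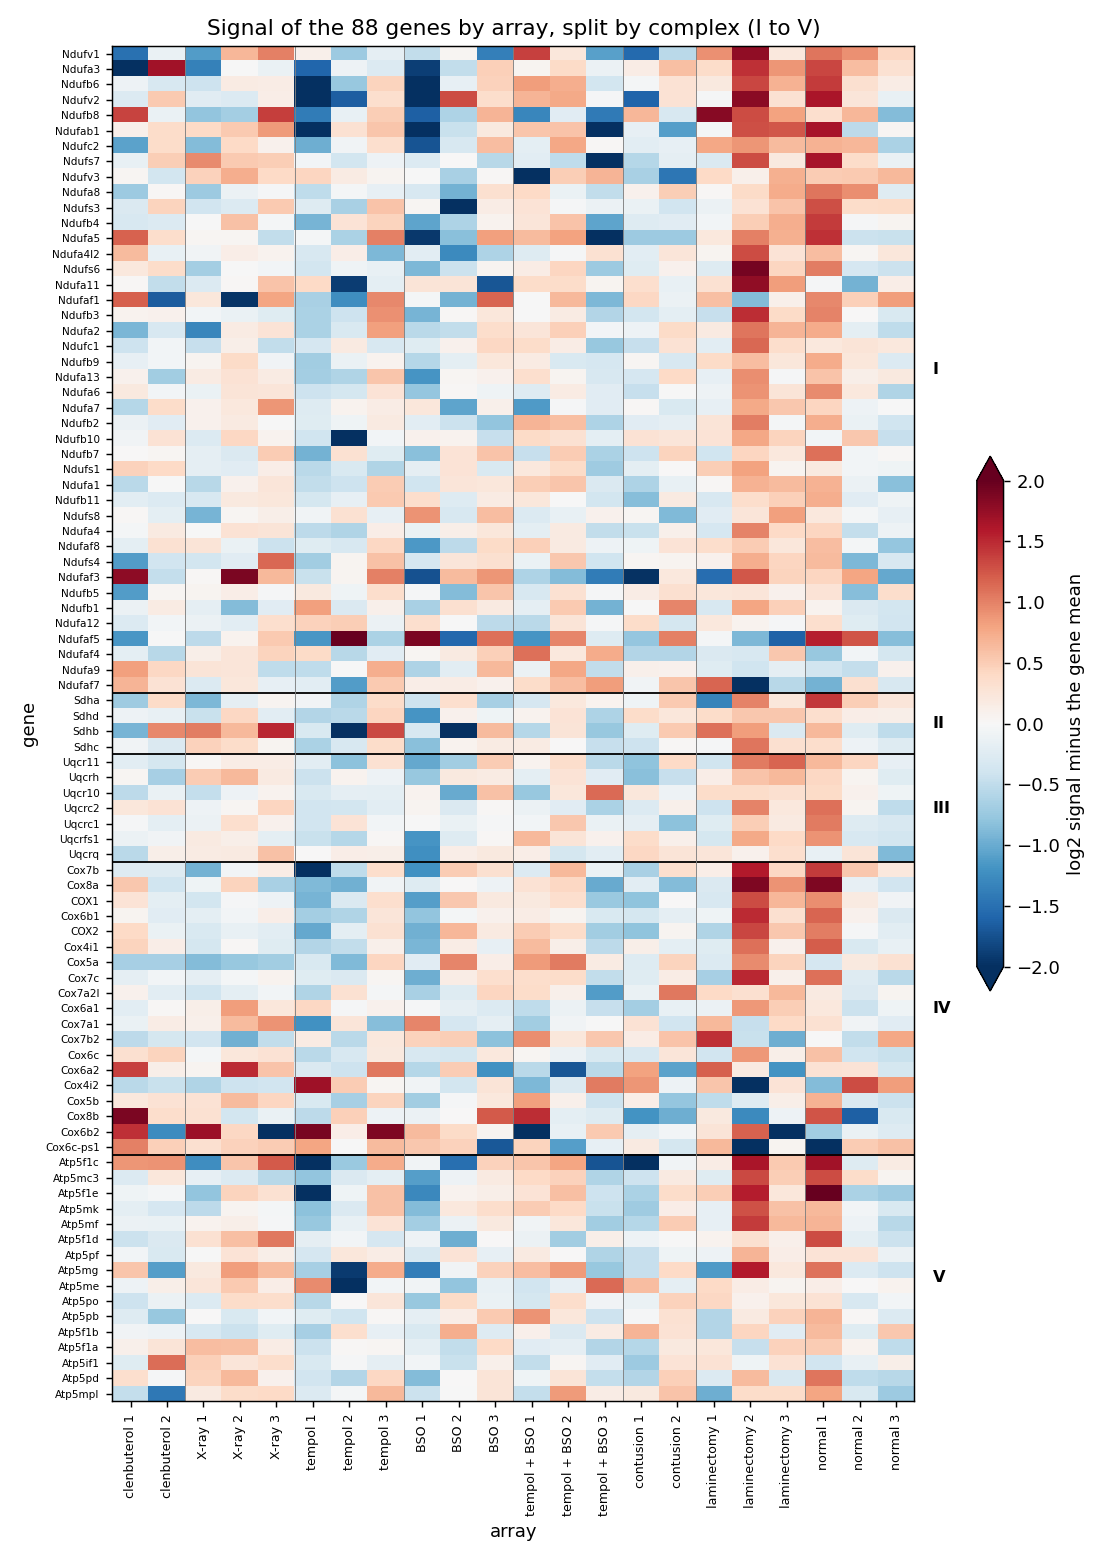
Log2 signal of each of the 88 genes minus its mean, one row per gene and one column per array, rows split by complex I to V. Red is above and blue below the gene's mean. Red fills most of the laminectomy 2 and normal 1 columns across all complexes, and blue is most frequent in BSO 1, tempol 1 and tempol plus BSO 3.

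Complex I, which oxidizes NADH, had the lowest median of the 5 complexes with all arrays. Of its 42 genes 38 were lower, by a median of -0.41, and without the assembly factors 35 of 36 were lower, by -0.46. Without laminectomy 2 and normal 1 it was 30 of 42, by -0.16, and complex IV had the lowest median (-0.18). No difference between complexes was tested. The member with the smallest p was Ndufv1, the flavoprotein core subunit that takes electrons from NADH. Its signal ran from 62.1 to 471.9 (median 146.1) in contused arrays, against 210.9 to 626.9 (median 343.8) in uninjured arrays. The lowest uninjured array lay above the contused median, and the ranges overlapped. The difference was -1.28 ± 0.39 (SE), a 0.412-fold level (95% interval -2.10 to -0.46, adjusted p = 0.211), and -1.01 ± 0.46 without the 2 arrays.

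Other genes counted under complex I by their symbol followed. Ndufa3 had a contused median of 562.6 (119.4 to 1931.5), against 1023.0 (750.6 to 1668.9) in uninjured cord, a difference of -1.10 ± 0.46. Its contused arrays spread on both sides of all uninjured ones. Ndufa8 stood at 1127.8 (641.8 to 1726.5) in contused and 1829.2 (1042.8 to 2590.3) in uninjured arrays (-0.65 ± 0.27). Ndufb6, a membrane arm subunit, stood at 638.4 (107.0 to 1190.8) and 960.8 (738.0 to 1762.4) (-0.91 ± 0.43). Ndufa4l2, a paralogue of Ndufa4 that is known to be induced by hypoxia through HIF, stood at 243.0 (108.5 to 406.8) and 311.0 (269.8 to 646.6) (-0.54 ± 0.26). Without the 2 arrays these differences were -0.82, -0.53, -0.57 and -0.27, and none of the 4 genes passed in either fit.

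Among the 4 complex I genes not lower in contused cord, 3 were assembly factors, which help build the enzyme without staying in it. Ndufaf7, a methyltransferase acting on a core subunit, had a contused median of 156.1 (63.2 to 246.0), against 101.7 (28.3 to 309.1) in uninjured cord. Its difference of 0.62 ± 0.37 was 0.03 without the 2 arrays, where laminectomy 2 held the lowest value (28.3). Ndufaf4 stood at 217.1 (129.5 to 419.3) and 157.8 (115.4 to 283.9) (0.22 ± 0.23), and Ndufaf5, at the low end of the array, at 47.8 (17.5 to 255.2) and 39.8 (17.0 to 152.5) (0.11 ± 0.57). The only structural subunit on the higher side was Ndufa9, at 1564.0 (959.1 to 2599.2) in contused and 1189.8 (1055.5 to 1563.7) in uninjured arrays (0.39 ± 0.27, and 0.33 without the 2 arrays). Ndufa4 counts under complex I by its symbol, although its protein is now placed in complex IV, and its difference was -0.21 ± 0.24.

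Complex II, succinate dehydrogenase, links the chain to the citric acid cycle. All 4 genes were lower in contused cord (median -0.39), from -0.32 for the membrane anchor Sdhc to -0.45 for the flavoprotein Sdha, none at an unadjusted p under 0.05. Without the 2 arrays the median was -0.09. Sdhb, the iron-sulfur subunit, was the least even: it ranged from 36.4 in BSO 2 to 850.4 in X-ray 3, both contused. In complex III 6 of 7 genes were lower (median -0.31, and 0.03 without the 2 arrays). The widest difference was in Uqcr11, a small subunit, at 1648.6 (866.4 to 2500.7) in contused and 2554.9 (1330.9 to 3950.9) in uninjured arrays (-0.63 ± 0.31). The catalytic Rieske protein gene Uqcrfs1 differed by -0.22 ± 0.26.

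In complex IV, cytochrome c oxidase, 14 of 19 genes were lower (median -0.23, and -0.18 with 12 of 19 without the 2 arrays). The small subunit Cox7b stood at 938.8 (223.3 to 1677.7) in contused and 1489.9 (1177.1 to 3207.8) in uninjured arrays (-0.97 ± 0.38, and -0.58 without the 2). Cox8a, the ubiquitous form of another small subunit, stood at 8499.5 (4702.2 to 13677.4) and 12977.6 (7279.1 to 34433.3). Its values of 34334.0 in laminectomy 2 and 34433.3 in normal 1 lay far above the next array, laminectomy 3 at 17511.8. Its difference of -0.87 ± 0.37 was -0.25 ± 0.34 without those arrays. Cox6b1 stood at 2797.5 (1746.8 to 3569.6) and 3488.9 (2490.9 to 8536.6), and its -0.62 ± 0.28 became -0.18.

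The catalytic core subunits COX1 and COX2 are encoded in mitochondrial DNA, and their transcripts showed the same array pattern. In contused arrays COX2 ran from 30198.6 in tempol 1 to 97776.7 in BSO 2. Among uninjured arrays it read 154527.2 in laminectomy 2, the highest signal in the data, 124754.0 in normal 1, and 40403.1, 89659.7, 60382.4 and 52977.0 in laminectomy 1 and 3 and normal 2 and 3. COX1 was likewise highest in laminectomy 2 (123083.7) and normal 1 (94919.1). The differences, contused minus uninjured, were -0.62 ± 0.31 for COX1 and -0.47 ± 0.33 for COX2, with a median of -0.17 for the pair without the 2 arrays. Nuclear and mitochondrial transcripts of complex IV stood high on the same arrays.

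Tissue isoforms and related genes counted under complex IV gave small differences or depended on the 2 arrays. Cox8b, the heart and skeletal muscle form, had a contused median of 112.8 (53.4 to 451.3), against 106.1 (39.5 to 290.6) in uninjured arrays (0.41 ± 0.40). Cox6a2, Cox7a1 and Cox7a2l differed by -0.05 ± 0.40, -0.13 ± 0.28 and -0.27 ± 0.27. The ubiquitous Cox6a1 differed by -0.23 ± 0.22 and Cox4i1 by -0.37 ± 0.29. Cox4i2, the form best known from lung, reached 1049.3 in tempol 1 and was lowest, at 61.2, in laminectomy 2. Its difference of 0.06 ± 0.43 was -0.73 ± 0.35 without the 2 arrays. Cox6c-ps1, which read 62.5 and 69.9 in those arrays, likewise differed by 0.59 ± 0.46 with them and by -0.28 ± 0.38 without them. Cox6b2, a testis form, read 5.0 to 125.5 in contused and 5.5 to 77.0 in uninjured arrays, near the low end (0.50 ± 0.62). Cox5a and Cox5b, which bind the core on the matrix side, differed by -0.32 ± 0.27 and 0.15 ± 0.27.

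For the ATP synthase, complex V, 15 of 16 genes were lower (median -0.21, and -0.08 with 10 of 16 without the 2 arrays). Atp5mc3, a gene for the c-ring that turns with the proton flow, stood at 3446.8 (1881.7 to 5595.8) in contused and 5446.5 (3438.8 to 10082.0) in uninjured arrays. Laminectomy 2 (10082.0) and normal 1 (10002.9) were again its highest. The difference of -0.74 ± 0.29 was -0.36 ± 0.30 without them. The catalytic beta subunit Atp5f1b differed by -0.10 ± 0.25, the alpha subunit Atp5f1a by -0.07 ± 0.24 and the inhibitor Atp5if1 by -0.01 ± 0.24. The rotor shaft gene Atp5f1c had a wider difference with a wide error (-0.88 ± 0.53), and the small membrane subunit Atp5mpl was the member on the higher side (0.07 ± 0.30).

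**Figure D3:**
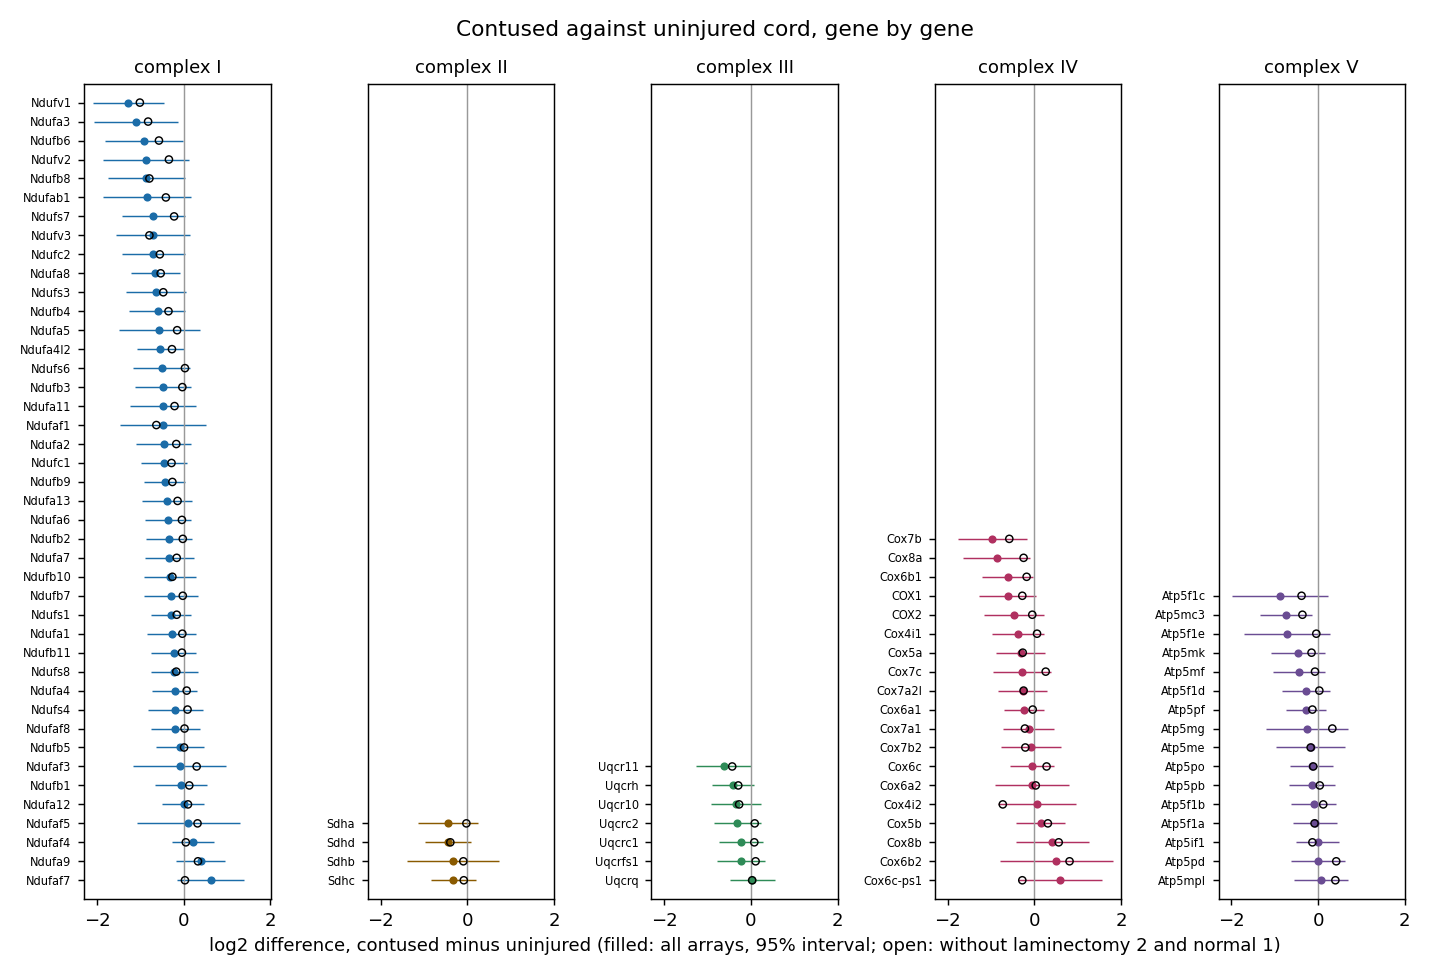
Log2 difference, contused minus uninjured, of each gene in 1 panel per complex. Filled points show all arrays with 95% intervals, and open circles the fit without laminectomy 2 and normal 1. Most filled points lie left of 0 (77 of 88), and most open circles lie nearer to 0.

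The precision of this comparison was limited. The 95% interval lay within a doubling and a halving, 1 unit of log2 either way, for 49 members. A fall of 1 unit lay outside the interval for 53 members and a rise of 1 unit outside it for 83. Of the 9 genes with further probe sets, 2 gave the opposite sign: Ndufv3 (-0.70 ± 0.40, against 0.29 ± 0.46 on its dimmer probe set) and Atp5po (-0.14 ± 0.24, against 0.49 ± 0.27).

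In lists of other mitochondrial and glycolytic genes 1 gene passed the test, the glycolytic Ldha. Among electron carriers and ubiquinone genes 9 of 14 were lower in contused cord (median -0.10), among assembly factors, 1 of them a member, 27 of 35 (-0.23), in the citric acid cycle 11 of 13 (-0.22), among carriers and outer membrane genes 13 of 22 (-0.12) and among regulators of mitochondrial biogenesis 12 of 21 (-0.10). Without laminectomy 2 and normal 1 the medians of these 5 lists were -0.08, -0.13, -0.02, -0.02 and -0.05 in the same order, beside -0.12 for the members. By limma 0 genes of these lists passed with all arrays, and 1 of each of the assembly factors and citric acid cycle genes and 2 of the regulators had an unadjusted p under 0.05. The smallest p among them was that of Polg2, the accessory subunit of the mitochondrial DNA polymerase, at 1.89 ± 0.43 (limma adjusted p = 0.0767), while Esrra, the gene of an ERR receptor, differed by -1.06 ± 0.42 (adjusted p = 0.362). In glycolysis 11 of 19 genes were lower (median -0.13), and 12 of 19 were higher without the 2 arrays (median 0.09). Ldha, the enzyme subunit that makes lactate, was higher in contused than in uninjured cord by 1.64 ± 0.27 (limma adjusted p = 0.00912). The uninjured arrays were not alike in Ldha: laminectomy was above normal cord by 1.88 ± 0.47. Untreated contusion was above normal cord by 2.66 ± 0.52, and neither of these differences passed the test. The muscle phosphofructokinase gene Pfkm differed by -0.81 ± 0.26 (adjusted p = 0.232).

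Untreated contused cord against normal cord gave a lower median as well, with wider errors. These arrays are among those of the comparison above. Of the 88 members 63 were lower, where 49.5% of probe sets were (median -0.27, median SE 0.55), and 0 passed by limma, where 0.0483% of probe sets did. At an unadjusted p under 0.05 there was 1 member, lower, against 6.65% of probe sets. Both contusion arrays lay below all 3 normal arrays for 8 members (Ndufa5, Ndufaf1, Ndufb4, Ndufs3, Ndufs7, Ndufv1, Ndufv3 and Uqcrh), 9.09% of them, where 11.6% of probe sets did so. Normal 1 weighed on the count: without it 47 members were lower, by a median of -0.05. Without contusion 1 the figures were 49 and -0.06.

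Ndufv1 again had the smallest p, with 62.1 and 126.2 in contusion arrays, against 382.5, 344.4 and 244.4 in normal arrays. The groups did not overlap, and the difference was -1.85 ± 0.75 (adjusted p = 0.631), or -1.71 ± 0.82 without the arrays that stood apart. Ndufv3, an accessory subunit of the same flavoprotein arm, read 877.8 and 505.4 in contusion arrays, against 1956.1, 1964.0 and 2143.6 in normal arrays. These did not overlap either (-1.60 ± 0.77), but its other probe set differed by 0.12 ± 0.88. Ndufs7, a core iron-sulfur subunit, read 344.2 and 449.4 in contusion arrays, against 1592.9, 656.9 and 465.1 in normal arrays (-1 ± 0.65), with the highest in normal 1. Uqcrh, the hinge subunit of complex III, read 1119.4 and 1458.4, against 2652.5, 2080.4 and 1697.1 (-0.72 ± 0.44). Atp5f1c read 142.4 and 661.6, against 2226.9, 579.1 and 774.0, with overlap (-1.70 ± 1).

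On the higher side, Uqcrq, a small ubiquinone-binding subunit, read 4606.0 and 4125.9 in contusion arrays, against 3125.4, 4107.6 and 1861.0 in normal arrays. It was the only member whose contusion arrays lay above all normal arrays (0.60 ± 0.48, against 10.6% of probe sets). Ndufb1 differed by 0.68 ± 0.54, Cox7a2l by 0.47 ± 0.51, Atp5mpl by 0.46 ± 0.57 and Ndufaf7 by 0.55 ± 0.71, all with overlapping arrays.

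Set against laminectomy, 71 of the 88 members were lower in untreated contused cord, by a median of -0.50, where 49.2% of probe sets were lower. By limma 0 passed, against 0.00322% of probe sets, and 2 had an unadjusted p under 0.05, both lower, against 5.38%. Both contusion arrays lay below all 3 laminectomy arrays for 20 members, 22.7% of them, where 10.3% of probe sets did so, and above them for 1, Ndufa9 (9.52% of probe sets). Without laminectomy 2 the median was -0.27, with 67 lower. The first of the 2 genes was Ndufv1, at 62.1 and 126.2 in contusion arrays, against 343.1, 626.9 and 210.9 in laminectomy arrays (-2.01 ± 0.75, limma adjusted p = 0.925). The other was Uqcrh, at 1119.4 and 1458.4, against 2192.9, 2964.1 and 3125.4 (-1.09 ± 0.44, limma adjusted p = 0.925). Atp5f1c read 142.4 and 661.6 in contusion arrays, below 772.8, 2146.7 and 999.7 in laminectomy arrays (-1.95 ± 1). The comparisons with laminectomy and with normal cord share the contusion arrays, so their values for a gene are not independent.

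Laminectomy alone showed no member past the test against normal cord, where 0.00644% of probe sets passed, and 0 members had an unadjusted p under 0.05, against 5.59%. The members were more often higher (62) than lower (26, where 50.8% of probe sets were lower), by a median of 0.19. That count depended on single arrays, since 44 were lower without laminectomy 2 or without normal 3, and 12 without normal 1. The accessory subunit genes Ndufa11 (293.8, 814.9 and 422.9 in laminectomy arrays, against 234.6, 124.1 and 261.3 in normal arrays, 1.24 ± 0.61) and Ndufb8 (849.6, 593.9 and 422.2, against 303.7, 382.9 and 131.8, 1.27 ± 0.72) did not overlap between the groups. They were 2 of 4 members whose laminectomy arrays all lay higher, and 4.43% of probe sets did so. For 0 members did they all lie lower, as for 4.14% of probe sets. Ndufaf5 differed the other way with overlap (-1.50 ± 0.96).

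**Figure D4:**
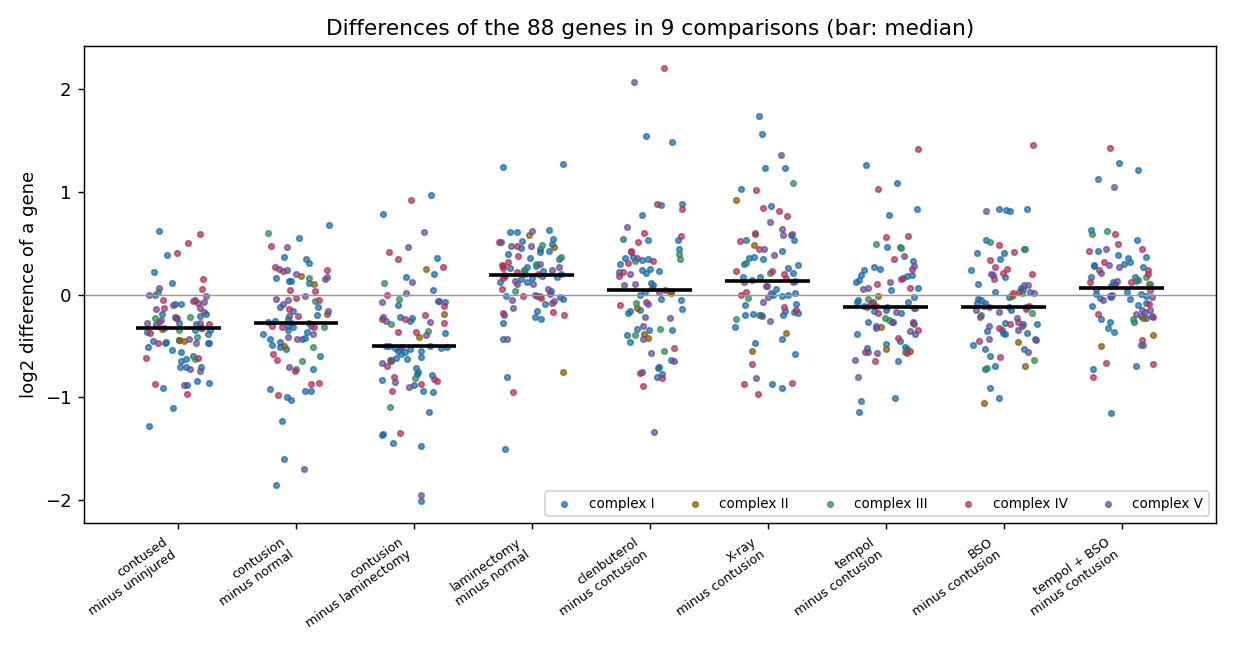
Log2 difference of each of the 88 genes (points, coloured by complex) in 9 comparisons, with the median as a bar. The medians run from -0.50 for contusion minus laminectomy to 0.19 for laminectomy minus normal, and the 5 treatments lie between -0.12 and 0.13.

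No treatment showed a member past the test against untreated contused cord, and the members were split between higher and lower in each. The members' median difference was 0.04 with clenbuterol (49 higher, 39 lower), 0.13 with X-rays (54 and 34), -0.12 with tempol (34 and 54), -0.11 with BSO (36 and 52) and 0.07 with tempol plus BSO (49 and 39). Over all probe sets 51.7%, 52.2%, 51.4%, 49.7% and 48.6% were lower in these comparisons. By limma 0 members passed in any of the 5. All 5 share the 2 contusion arrays, whose own member medians differed (-0.21 and 0.09), and leaving out a single array moved these medians to between -0.31 and 0.29. The percentage of all probe sets that passed was 0.00322% for clenbuterol and 0% for the other 4. Members at an unadjusted p under 0.05 numbered 2 with clenbuterol, 1 with X-rays, 1 with tempol, 0 with BSO and 1 with tempol plus BSO, against 5.36%, 4.81%, 2.82%, 3.46% and 3.98% of probe sets.

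With clenbuterol the genes with the smallest p were Cox8b, Atp5mpl and Atp5f1c. Cox8b read 451.3 and 155.6 in clenbuterol arrays, against 53.4 and 61.8 in contusion arrays (2.21 ± 0.83, 4.61-fold, unadjusted p = 0.0158, adjusted p = 0.864 by limma). Atp5mpl read 966.4 and 502.2, against 1542.4 and 2014.0 (-1.34 ± 0.62, adjusted p = 0.929), and Atp5f1c 1274.0 and 1297.8, against 142.4 and 661.6 (2.07 ± 1.09). All 3 lay without overlap, as did 16 members higher and 17 lower in all, where 16.7% and 18.8% of probe sets did so with 2 arrays against 2. Cox8b is a muscle form. The summed signal of 15 skeletal muscle markers was 4007 to 4093 in clenbuterol arrays and 3638 to 6121 in contusion arrays, and none of the 15 passed. Myh1 was the brightest of them (median signal 2221.9), while Acta1, Mb, Myl11 and Myh4 were near the low end (30.1, 18.3, 15.9 and 17.6). The sum therefore marks muscle poorly here, and a part of muscle in the Cox8b values was not tested.

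**Figure D5:**
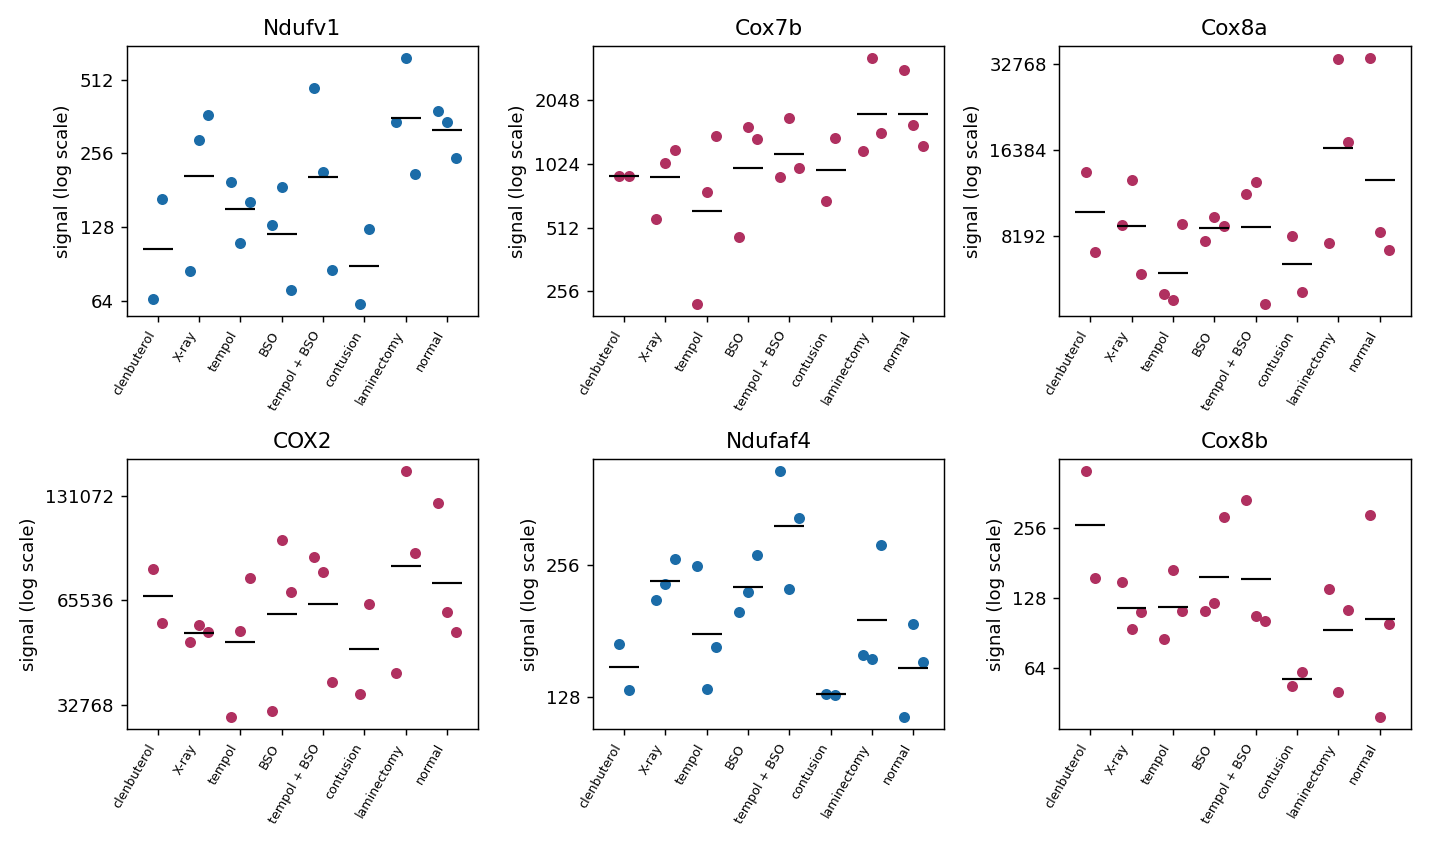
Signal of 6 genes on each array, on a logarithmic axis, by group, with the geometric mean of a group as a bar. The highest reading of Ndufv1, Cox7b, Cox8a and COX2 is in laminectomy 2 or normal 1, and contused and uninjured arrays overlap in each. In Ndufaf4 and Cox8b the 2 contusion arrays lie below all 14 arrays of treated cord.

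With X-rays Uqcrh read 2827.0, 3124.6 and 2267.1, against 1119.4 and 1458.4 in contusion arrays, without overlap (1.09 ± 0.44, unadjusted p = 0.0222, adjusted p = 1 by limma). Ndufv3 read 1879.1, 2261.9 and 1798.7, against 877.8 and 505.4 (1.56 ± 0.77). In total 18 members lay wholly higher and 8 wholly lower, 20.5% and 9.09% of them, where 11.5% and 12.7% of probe sets did. With tempol the membrane arm subunit Ndufb10 read 302.8, 87.9 and 385.8, against 485.8 and 473.5 (-1.14 ± 0.54, adjusted p = 1 by limma), tempol 2 being far the lowest. Ndufv3 was higher with tempol as well (1838.4, 1531.8 and 1427.7, 1.26 ± 0.77). Here 7 members lay wholly higher and 7 wholly lower, near the 7.86% and 8.35% of probe sets. With BSO 4 lay wholly higher and 5 wholly lower (8.87% and 7.92% of probe sets), and the core iron-sulfur subunit Ndufs8 read 673.4, 291.1 and 553.7, against 369.6 and 195.1, with overlap (0.83 ± 0.49).

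Ndufaf4 and Cox8b were the members whose 2 contusion arrays lay below all 14 arrays of treated cord, 2.27% of the members, where 0.49% of all probe sets did so. No member lay the other way, as 0.47% of probe sets did. Ndufaf4, an early assembly factor of complex I, read 169.5 and 132.8 with clenbuterol, 212.7, 231.6 and 264.4 with X-rays, 254.3, 133.3 and 166.7 with tempol, 199.6, 221.6 and 270.1 with BSO and 419.3, 225.6 and 327.9 with tempol plus BSO, against 130 and 129.5 in untreated contusion. The nearest treated arrays, clenbuterol 2 and tempol 2, lay barely above contusion. Laminectomy arrays read 159.6, 156.0 and 283.9 and normal arrays 115.4, 187.6 and 153.5, so that 5 of these 6 uninjured arrays lay above both contusion arrays and normal 1 lay below them. The difference was 1.28 ± 0.44 for tempol plus BSO (2.42-fold, unadjusted p = 0.00959, adjusted p = 1 by limma), 0.86 ± 0.44 for X-rays and 0.82 ± 0.44 for BSO.

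Cox8b read 149.9, 94.1 and 111.6 with X-rays, 85.0, 169.1 and 113.2 with tempol, 112.3, 122.2 and 285.1 with BSO and 339.9, 106.9 and 101.8 with tempol plus BSO. Uninjured cord spanned the treated and untreated levels, with 139.8, 50.7 and 113.4 in laminectomy arrays and 290.6, 39.5 and 98.7 in normal arrays. Its differences from contusion were 1.03 ± 0.76 with tempol, 1.46 ± 0.76 with BSO and 1.43 ± 0.76 with tempol plus BSO, none past the test. Both genes rest on the same 2 contusion arrays in all 5 comparisons, so these are not separate observations. Ndufv1 with tempol plus BSO read 471.9, 214.1 and 85.7, against 62.1 and 126.2 (1.21 ± 0.75), with overlap. In that group 5 members lay wholly higher and 2 wholly lower (9.54% and 8.42% of probe sets).

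Whether BSO altered the response to tempol was asked of the interaction, the tempol difference in the presence of BSO minus that in its absence. By limma 0 members passed, 0% of probe sets did, and 0 members had an unadjusted p under 0.05, against 3.44% of probe sets. The median was 0.20 with 60 of 88 above 0, where 49% of probe sets were below 0, and its median SE of 0.74 was the widest of the comparisons. The smallest p-values belonged to Uqcrfs1 (1.37 ± 0.67), Ndufb6 (2.19 ± 1.08) and Ndufb10 (1.41 ± 0.72), all adjusted p = 1. Uqcrfs1 read 879.1, 674.8 and 597.4 with tempol plus BSO and 247.2, 470.4 and 571.1 with BSO, and it read 414.1, 378.8 and 572.3 with tempol and 724.2 and 602.6 in contusion. Ndufb6 was lowest in BSO 1 (107.0) and tempol 1 (131.7), the arrays with the weakest spikes.

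Over all 8 groups, the spread of a gene's group means ran from 0.45 on the log2 scale in Ndufa12, an accessory subunit of complex I, to 2.29 in Ndufb8, with a median of 0.94. Laminectomy had the highest of the 8 means for 41 members, normal cord for 12 and X-rays for 11. The lowest mean fell to tempol for 21 members, untreated contusion for 18 and BSO for 17. These orders rest on 2 or 3 arrays a group and were not tested. The same shares over all probe sets, or without single arrays, are not given here. Laminectomy 2 alone held the highest signal for 28 members (31.8%), and for 10.5% of all probe sets.

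Ndufb8 averaged 417.6 ± 279 with clenbuterol, 305.8 ± 278 with X-rays, 216.1 ± 124 with tempol, 207.1 ± 160 with BSO, 130.9 ± 64.1 with tempol plus BSO and 287 ± 133 in untreated contusion, against 621.9 ± 215 after laminectomy and 272.8 ± 128 in normal cord (SD, n = 2 or 3). The 3 laminectomy arrays, 422.2 to 849.6, lay above all arrays of the tempol, BSO, tempol plus BSO, contusion and normal groups and overlapped those with clenbuterol and X-rays. Atp5f1b, the catalytic subunit of the ATP synthase, had its highest mean in untreated contusion, 7430 ± 1430, and its lowest with X-rays, 4201 ± 288. The other means lay between 4912 ± 1670 with tempol and 6756 ± 2020 in normal cord, and neighbours in this order overlapped. Ndufa4 ran from 2547 ± 752 with tempol to 4256 ± 1870 after laminectomy, and Sdhc from 962.4 ± 202 in untreated contusion to 1567 ± 626 after laminectomy, with laminectomy 2 the highest array for both. Atp5mg, a membrane subunit of the synthase, ran from 455.6 ± 388 with tempol to 820 ± 701 after laminectomy, with arrays of every group overlapping those of others. The means in this paragraph are of signal, not of log2 signal, and the order can differ. By log2 means Atp5mg was highest with X-rays, and Sdhc was lowest with BSO.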

How the data were processed

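The arrays are Affymetrix rat genome arrays, 1 per sample. The deposited values are intensities on a linear scale, and the submitters' processing notes name RMA. The values are not on a log scale, and each array has a 2% trimmed mean of 250. The sources used here do not give the scaling the authors applied. Intensities ran from 0.3 to 154527.2. How many cells or molecules stand behind a value is unknown, and the number of arrays limits the precision.

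Here log2 was taken of the deposited intensity, with no further normalization. Of 31099 probe sets 57 controls were left out, and 31042 were tested. The platform annotation gave 1 gene symbol to 20826 of these, several to 436 and none to 9780. Symbols can be old, and 86 of the 88 members were in the RefSeq gene table. All 22 columns were used. All arrays entered 1 limma 3.58.1 fit (R 4.3.3) with 8 group means and eBayes (14 residual and 4.713 prior degrees of freedom). Tests were two-sided, and Benjamini-Hochberg adjustment ran over the 31042 probe sets with a threshold of 0.05. Values after ± are standard errors, except group means of signal, which have the SD.

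Named genes are the 10 smallest p-values in each direction in contused minus uninjured, 5 in each direction in contusion minus normal, 3 in the other comparisons, the highest, lowest and most variable gene of each complex, and the isoform genes. The members and gene lists were chosen with earlier results of these data known. The fit was tested on simulated data. The alternatives are described in the closing section.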

Additional observations from a re-analysis of the deposited data

How the results depend on the processing

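No member passed the threshold under any setting tried: quantile normalization, a filter on low signal (which left out Ndufaf3, Ndufaf5 and Cox6b2), log2 of signal plus 32, eBayes with trend and robust settings, only the arrays compared, the mean of all probe sets, another uninjured reference, each array left out, the fit without laminectomy 2 and normal 1, and the spike covariate, which was chosen after seeing the data. Of 276 values over the members, apart from single arrays left out, 275 moved by less than the spread between arrays (medians, 0.32) or by no more than 1.5 times (counts). That limit is wide: for contused minus uninjured the median was -0.12 with 59 lower without laminectomy 2 and normal 1, and -0.18 with 71 lower with the spike covariate. Medians near 0 changed sign, to -0.07 for clenbuterol, -0.01 for X-rays and -0.10 for tempol plus BSO with the spike covariate, and to -0.01 for clenbuterol with quantile normalization. The value outside the limit was the number of members lower with tempol plus BSO, 60 with the spike covariate. Leaving out single arrays gave a median for contused minus uninjured of -0.43 to -0.21, and the number lower in laminectomy minus normal of 12 to 44. The labels do not say whether equal replicate numbers mark a pair or a shared run. Of 71 same-number correlations 7 were over 0.1 (-0.2 to 0.198), and low values cannot show that no pairing existed. The arrays with the weakest spikes were BSO 1, tempol 1, contusion 1, tempol plus BSO 3 and laminectomy 1. With the replicate block the median was -0.30 with 76 lower, and it changed no call. Of 1151 named gene differences 20 changed sign, none past the threshold. Without laminectomy 2 and normal 1 these were Cox6c-ps1 (-0.28) and Cox4i2 (-0.73), with the spike covariate Cox4i2 (-0.34), and against normal cord only Ndufaf5 (-0.64) and Cox4i2 (-0.41). With single arrays left out Cox4i2 ran from -0.41 to 0.33, Ndufaf5 from -0.27 to 0.33, Atp5mpl from -0.15 to 0.29, Cox6b2 from -0.05 to 0.90 and, in contusion minus normal, Cox7a2l from -0.12 to 1.07. The cause was not tested. Groups of 2 and 3 arrays limit what could be detected: in contusion minus normal the median standard error of a member was 0.55.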
